A study of Homo sapiens with 6 samples.

Results

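The 10 genes described here are the 3 genes of interferon lambda (*IFNL1*, *IFNL2*, *IFNL3*), the interferon beta gene *IFNB1*, and the receptor chains *IFNLR1*, *IL10RB*, *IFNAR1*, *IFNAR2*, *IFNGR1* and *IFNGR2*. They were taken by symbol from the 19225 genes listed, and all 10 were found. The set was chosen by hand with results of these libraries in view, selected on the FPKM of the lambda genes in control against MDM4 libraries, so that every MDM4 against control value of these genes below is a description.

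RNA sequencing covered SW480 cells, an established colon cancer cell line labelled as carrying mutant p53, with 3 control libraries and 3 libraries of cells transiently transfected with plasmids encoding MDM4. The labels call the second group exercised, which was taken to mean MDM4, no other group besides control being present. The treatment entry of both groups is a plasmid transfection, and which plasmid the control cells received is not given in the sources used here. Each library is numbered 1, 2 or 3 within its group, and nothing says whether the libraries came from separate cultures, so that p-values measure only the spread between these libraries. The model is a single cell line.

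Interferons are cytokines that cells release when they sense foreign RNA or DNA. Interferon beta is the type I interferon that epithelial cells and fibroblasts make, and it binds a receptor of IFNAR1 and IFNAR2. The interferon lambdas are the type III interferons and bind IFNLR1 together with IL10RB, a chain that the interleukin 10 and interleukin 22 receptors use too. IFNLR1 is found mainly on epithelial cells, which makes type III interferon a defence of mucosal surfaces such as the gut. IFNGR1 and IFNGR2 form the receptor of interferon gamma, the type II interferon of T cells and natural killer cells. Type I and type III receptors signal through the kinases JAK1 and TYK2 and factors such as STAT2 and IRF9 to a largely shared set of response genes.

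Expression was deposited as FPKM, a read count per length of the gene and per size of the library. Values are given below in the order of replicates 1, 2 and 3. Within a library each FPKM of a gene is a whole number of steps of 1 read, and the reads were recovered from these steps for 17188 of 17189 genes above 0. Library totals were between 33044788 and 44729596 reads. The control libraries had 6.35, 7.09 and 5.13 FPKM of *MDM4*, and the MDM4 libraries had 188.5, 185.2 and 56.3 FPKM. Replicate 3 stood apart from replicates 1 and 2 in both groups, and MDM4 replicate 3 held less *MDM4* than the other MDM4 libraries. Colon epithelial markers were present, with *KRT8* at a mean of 1726 FPKM, *EPCAM* between 155.8 and 167.4 FPKM and *CDX2* between 9.99 and 14.2 FPKM, while 5 of 12 markers, among them *KRT20* and *CEACAM5*, were under 1 FPKM. Of 13 leukocyte markers, *CD3D*, *CD2* and *MS4A1* were at 0 in all libraries, *PTPRC* was at most 0.0142 FPKM, and *CD68* was the single marker with a mean of 1 FPKM or more. The summed level of these markers was between 6.76 and 7.81 FPKM in control and between 6.54 and 7.84 FPKM in MDM4 libraries. Of 8 markers of plasmacytoid dendritic cells, a strong source of interferon in blood, *CLEC4C* was at 0 in all libraries and the sum was between 1.54 and 1.59 FPKM in control and between 0.967 and 1.49 FPKM in MDM4 libraries. The largest part of that sum in every library was *GZMB*, a granule protease that cytotoxic lymphocytes make too, at 1.26, 1.21 and 0.890 FPKM in control and 1.04, 0.619 and 0.496 FPKM in MDM4 libraries, while *IL3RA* had means of 0.111 FPKM in control and 0.152 FPKM in MDM4 libraries. Of 8 fibroblast markers, *COL1A1* was the single one with a mean of 1 FPKM or more, *DCN* was at most 0.00668 FPKM, and the sum was between 1.86 and 4.07 FPKM in control and between 1.99 and 4.04 FPKM in MDM4 libraries. Because the libraries are bulk samples, fewer cells that express a gene and less RNA per cell cannot be told apart.

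In GENCODE release 29 on GRCh38, the interferon lambda genes lie together on chromosome 19. *IFNL3* (ENSG00000197110.8) is on the minus strand from 39243553 to 39245129, *IFNL2* (ENSG00000183709.7) on the plus strand from 39268514 to 39270092 and *IFNL1* (ENSG00000182393.2) on the plus strand from 39296325 to 39298673, all within 55121 bases. *IFNB1* (ENSG00000171855.6) is a gene with a single exon on the minus strand of chromosome 9 from 21077105 to 21077963. The longest *IFNL2* and *IFNL3* transcripts were identical in 97.6% of 737 aligned positions, with a longest identical stretch of 125 bases, so that reads could be shared between these genes and each one's own level is uncertain. *IFNL1* was 65.9% identical to *IFNL2*, with a longest identical stretch of 41 bases, and *IFNB1* was 46.6% identical to *IFNL1*.

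The stretches of 250 bases before the RefSeq starts of the interferon genes (GRCh38.p14) are shown because the expression of the lambda genes moved together across libraries and because *IFNL2* and *IFNL3* are nearly the same there. Whether these stretches have a part in that expression was not tested, and *IFNL2* and *IFNL3* could share reads. Capitals mark matches, on either strand, to AANNGAAA, a motif of interferon regulatory factors (IRFs), and to the NF-κB consensus. Each stretch is written 5′ to 3′ on the gene's own strand. *IFNL1* is chr19:39296157-39296406 (plus), *IFNL2* chr19:39268146-39268395 (plus), *IFNL3* chr19:39245251-39245500 (minus, the upstream one of 2 RefSeq starts, the other having no match in its window) and *IFNB1* chr9:21077943-21078192 (minus).
IFNL1: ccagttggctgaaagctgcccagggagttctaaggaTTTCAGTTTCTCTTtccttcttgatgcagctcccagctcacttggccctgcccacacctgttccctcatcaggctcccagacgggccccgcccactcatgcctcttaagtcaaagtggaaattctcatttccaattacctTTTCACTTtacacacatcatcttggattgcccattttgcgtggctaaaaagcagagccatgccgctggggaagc
IFNL2: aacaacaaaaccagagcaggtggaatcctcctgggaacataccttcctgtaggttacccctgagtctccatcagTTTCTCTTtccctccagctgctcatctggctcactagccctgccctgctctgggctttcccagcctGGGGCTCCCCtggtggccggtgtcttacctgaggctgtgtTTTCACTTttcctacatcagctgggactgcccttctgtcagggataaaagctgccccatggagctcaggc
IFNL3: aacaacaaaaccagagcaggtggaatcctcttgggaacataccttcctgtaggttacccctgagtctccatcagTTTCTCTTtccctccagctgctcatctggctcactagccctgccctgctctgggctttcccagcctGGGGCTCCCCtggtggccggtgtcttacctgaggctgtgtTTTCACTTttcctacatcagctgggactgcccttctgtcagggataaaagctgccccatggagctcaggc
IFNB1: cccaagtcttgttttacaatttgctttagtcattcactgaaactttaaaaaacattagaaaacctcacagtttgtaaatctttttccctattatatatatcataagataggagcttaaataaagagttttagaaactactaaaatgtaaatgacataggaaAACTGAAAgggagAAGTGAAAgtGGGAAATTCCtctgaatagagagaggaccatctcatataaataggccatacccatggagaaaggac

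*IFNL2* and *IFNL3* differed at 1 of 250 positions. The AANNGAAA motif matched 3 times before *IFNL1*, of which 2 matches overlap, and 2 times before each of *IFNL2*, *IFNL3* and *IFNB1*. Of 35116 promoter windows of the same length, 20.3% held it. In all 3 lambda genes an AANNGAAA match lay on the reverse strand close to the start, at 74 to 67 bases before it in *IFNL1* and 70 to 63 bases before it in *IFNL2* and *IFNL3*. In *IFNB1* the NF-κB consensus began 66 bases before the start, and in *IFNL2* and *IFNL3* it matched on both strands at the same place, from 110 to 101 bases before the start. The NF-κB consensus was held by 9.96% of all windows. Windows were given for 9 of the 10 genes, *IFNAR2* being the exception. None of the windows of *IFNLR1*, *IL10RB*, *IFNAR1*, *IFNGR1* and *IFNGR2* held the IRF motif, and *IFNGR2* alone among these matched the NF-κB consensus, at 3 places, 1 of them on both strands. A match of letters is a description and does not show that a factor binds.

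The interferon lambda genes were read in control replicates 1 and 2 and almost nowhere else. *IFNL1* was at 0.940 and 1.44 FPKM in control replicates 1 and 2, from 36 and 44 reads, and at 0 in control replicate 3 and in MDM4 replicates 1 to 3. *IFNL2* was at 1.31 and 2.10 FPKM in control replicates 1 and 2, from 43 and 55 reads, at 0 in control replicate 3 and in MDM4 replicates 1 and 2, and at 0.0412 FPKM, 1 read, in MDM4 replicate 3. *IFNL3* had 1.98, 2.22 and 0 FPKM in the control libraries, from 57, 51 and 0 reads, and 0.0854, 0 and 0.188 FPKM in the MDM4 libraries, from 2, 0 and 4 reads. For each of the 3 genes the values of control replicates 1 and 2 were above those of the other 4 libraries, and because control replicate 3 was at 0 the groups overlapped. A library at 0 was taken to allow up to 3 reads. For *IFNL1* this is 0.0871 FPKM in control replicate 3 and between 0.0963 and 0.106 FPKM in the MDM4 libraries.

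**Figure D1:**
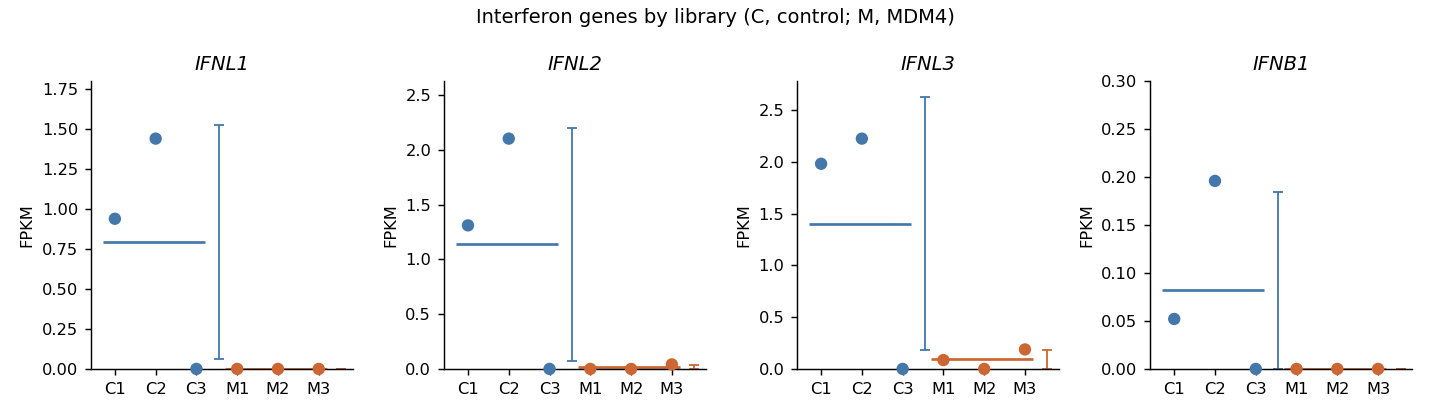
FPKM of IFNL1, IFNL2, IFNL3 and IFNB1 in each library (C1 to C3, control replicates 1 to 3; M1 to M3, MDM4 replicates 1 to 3), with the group mean as a line and its SD as a bar beside it, drawn down to 0 at most; each panel has its own scale. Control replicates 1 and 2 hold nearly all of the signal, with up to 2.22 FPKM for IFNL3, while control replicate 3 is at 0 in all 4 panels.

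Over the 3 lambda genes together, control replicate 1 held 136 reads (95% exact Poisson interval 114.1 to 160.9) and control replicate 2 held 150 reads (127.0 to 176.0). Control replicate 3 held 0 reads, MDM4 replicate 1 held 2, MDM4 replicate 2 held 0 and MDM4 replicate 3 held 5 (1.62 to 11.7). These intervals cover counting error only, and whether both ends of a sequenced fragment were counted is not given in the sources used here. Relative to library totals, the 2 control libraries with reads lay 47.7-fold above a floor of 3 reads in control replicate 3. This value includes no counting error. The 3 control libraries together were 35.3-fold above the 3 MDM4 libraries (exact interval 16.9 to 88.6, counting error only). MDM4 replicate 3 held 5 of the 7 reads of the MDM4 group, and without it the ratio was 84.3 (23.1 to 699.6). It was 52.9 without control replicate 3 and between 23.5 and 32.1 with any 1 of the other 4 libraries left out. Over replicates 1 and 2 alone it was 126.5 (34.7 to 1050). These further ratios were added after the values were seen. Control replicates 1 and 2 held 136 and 150 reads, so leaving out 1 library could not remove the difference. The ratios are therefore no check of it. Their intervals do not cover the spread between control libraries, of which replicate 3 held 0 reads. By same-numbered libraries, MDM4 minus control on the log2(FPKM + 0.1) scale was -3.38 and -3.95 for *IFNL1* in replicates 1 and 2, while in replicate 3 both libraries were at 0. For *IFNL2* the MDM4 library minus the control library was -3.82, -4.46 and 0.50 in replicates 1 to 3, and for *IFNL3* it was -3.49, -4.54 and 1.53, where the values of replicate 3 rest on 1 and 4 reads. Over all libraries the difference was -2.44 (standard error 0.92) for *IFNL1*, -2.59 (1.06) for *IFNL2* and -2.17 (1.16) for *IFNL3*, and these depend on the pseudocount because most values are at or near 0. The value of *IFNL1* is from a separate fit without a filter on low values, because its mean was under 0.5 FPKM.

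*IFNB1* was at 0.0521 and 0.196 FPKM in control replicates 1 and 2, from 2 and 6 reads, and at 0 in control replicate 3 and all 3 MDM4 libraries. The reads are too few to order the libraries, and the 2 reads of control replicate 1 are under the floor of 3 reads. Relative to library totals the control group was 2.30-fold above a floor of 3 reads over the MDM4 group, with no counting error included. Of the 18 other interferon genes of a fixed list, 17 were in the table and 6 were above 0, none of them reaching the filter of a mean of 0.5 FPKM. *IFNG* was at 0 in every library. Alpha interferon genes had at most 6 reads in any library. *IFNE*, the epsilon interferon of epithelia of the reproductive tract, ran the other way, with 4, 4 and 18 reads in control replicates 1 to 3 and 23, 25 and 26 reads in MDM4 replicates 1 to 3. The groups did not overlap for *IFNE*, a gene that was singled out after its values were seen and was not tested.

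In contrast to the ligands, all 6 receptor chains were expressed in every library. They are given in the order of their level in control cells, from the type II receptor to the lambda-specific chain. *IFNGR2*, the signalling chain of the interferon gamma receptor, had 22.0, 23.0 and 22.3 FPKM in control libraries and 18.8, 18.9 and 20.5 FPKM in MDM4 libraries. It was the single receptor chain whose groups did not overlap, with every MDM4 library below every control library. *IFNGR1*, the chain that binds interferon gamma, was at 19.5, 18.6 and 19.2 FPKM in control and at 18.1, 19.9 and 19.7 FPKM in MDM4 libraries, with overlapping groups. *IFNGR2* was above *IFNGR1* in 5 of 6 libraries, at a ratio between 0.949 and 1.24. That ratio was 1.18 ± 0.0592 (SD, n = 3) in control and 1.01 ± 0.0522 (SD, n = 3) in MDM4 libraries.

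*IFNAR2*, the chain of the type I receptor that binds interferon most tightly, had 14.6, 13.7 and 16.2 FPKM in control libraries and 13.1, 13.3 and 17.4 FPKM in MDM4 libraries. *IFNAR1*, its partner, was at 12.5, 14.4 and 12.8 FPKM in control and at 12.9, 13.2 and 13.7 FPKM in MDM4 libraries. Groups overlapped for both, and the control ranges of these neighbours in level overlapped with each other too, with *IFNAR2* above *IFNAR1* in 5 of 6 libraries. The type II chains stood above the type I chains, and *IFNGR1* was 1.13-fold to 1.49-fold above *IFNAR2* in all 6 libraries.

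*IL10RB* had 9.76, 9.28 and 12.2 FPKM in control libraries and 9.51, 7.62 and 12.4 FPKM in MDM4 libraries. *IFNLR1*, the chain that only interferon lambda uses, was the least abundant, at 2.08, 2.22 and 3.48 FPKM in control and at 1.92, 1.86 and 3.67 FPKM in MDM4 libraries. In both genes replicate 3 was the highest library of its group. *IL10RB* was 3.38-fold to 4.95-fold above *IFNLR1* within a library, a ratio of 4.13 ± 0.594 (SD, n = 3) in control and 4.14 ± 0.785 (SD, n = 3) in MDM4 libraries. Among all genes above 0, ranked by control FPKM, *IFNLR1* was at percentile 38.5 and *IFNGR2* at percentile 78.4, with the other 4 chains between them, while *IFNL1*, *IFNL2* and *IFNL3* were between percentiles 28.3 and 32.8 and *IFNB1* was at percentile 15.1.

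**Figure D2:**
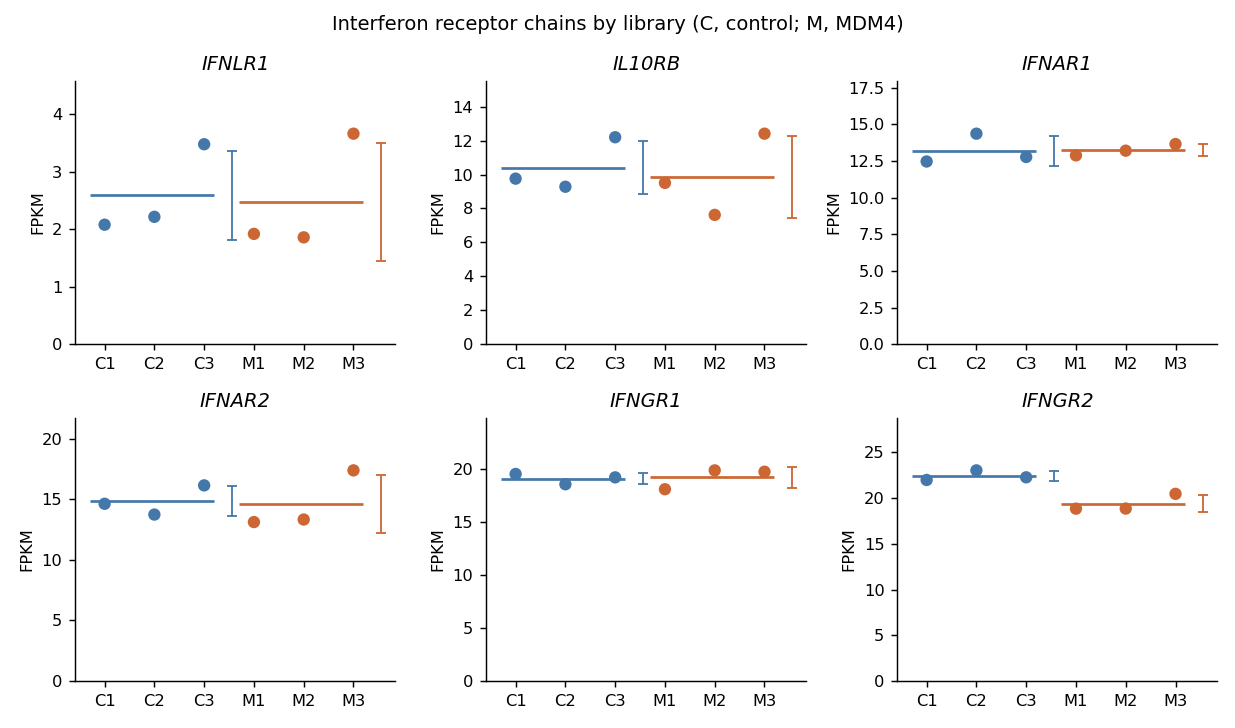
FPKM of the 6 receptor chains in each library (C1 to C3, control; M1 to M3, MDM4), with the group mean as a line and ± SD as a bar beside it; each panel starts at 0 and has its own scale. Replicate 3 of both groups is the highest for IFNLR1, IL10RB and IFNAR2, and the 3 MDM4 libraries are below the 3 control libraries for IFNGR2.

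On the log2(FPKM + 0.1) scale, MDM4 minus control was -0.21 for *IFNGR2* (standard error 0.080), -0.098 for *IL10RB* (0.19), -0.093 for *IFNLR1* (0.31), -0.031 for *IFNAR2* (0.13), 0.0074 for *IFNAR1* (0.096) and 0.0087 for *IFNGR1* (0.082). The median over the 6 chains was -0.062, beside -0.0091 over all 12884 genes tested, of which 52.8% were below 0. For *IFNGR2* the same-numbered difference was -0.22, -0.29 and -0.12 in replicates 1 to 3. It was the single chain whose difference had the same sign in all 3 replicate numbers, which for *IFNGR2* follows from its groups not overlapping. Groups that did not overlap, with MDM4 lower, were found in 1 of the 8 members tested, beside 3.76% of all genes tested, and with MDM4 higher in 0 of 8, beside 3.1%. The same contrast was used to choose the genes, and nothing is read from these counts.

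Differential expression was tested with limma over all genes whose mean reached 0.5 FPKM, which 8 of the 10 members passed. *IFNL1* and *IFNB1* did not, and *IFNL2* and *IFNL3* passed through control replicates 1 and 2 alone. A gene was called where its Benjamini-Hochberg adjusted p was under 0.05 and its log2 fold change was over 1 in size. Over all 6 libraries 0 of 8 members were called, beside 0 of 12884 genes (0% of all tested), and at an unadjusted p under 0.05 there were 2 of 8 members, *IFNL2* and *IFNGR2*, beside 222 of all genes (1.72%). With the replicate number as a block, limma called 0 members and 2 of all genes (0.0155%). Over replicates 1 and 2 alone, where 9 members passed the filter, limma called *IFNL1*, *IFNL2* and *IFNL3* lower and none of the receptor chains, beside 36 genes lower of 12746 (0.282%) and 1 higher (0.00785%). Without control replicate 3, *IFNL2* and *IFNL3* were called. These calls describe the contrast by which the genes were chosen and are no evidence of their own.

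The replicate number was compared across both groups, in a comparison chosen after the values were seen, by a limma fit with group and replicate 3 as terms. Here 3 of the 6 receptor chains were higher in replicate 3 than in replicates 1 and 2 at an adjusted p under 0.05. Unlike in the calls above, no threshold on the fold change was set, and none of the chains had a log2 difference over 1. *IFNLR1* had a mean of 3.57 FPKM in replicate 3 against 2.02 FPKM in replicates 1 and 2, a log2 difference of 0.80 (standard error 0.12, limma adjusted p = 6.29e-04). *IL10RB* had 12.3 against 9.04 FPKM, a log2 difference of 0.45 (standard error 0.098, limma adjusted p = 0.00437), and *IFNAR2* had 16.8 against 13.7 FPKM, a log2 difference of 0.29 (standard error 0.075, limma adjusted p = 0.00987). In these 3 genes the 2 libraries of replicate 3 lay above the 4 libraries of replicates 1 and 2. The other chains did not pass the test, with log2 differences of -5.67e-04 for *IFNAR1* (standard error 0.080), 0.036 for *IFNGR1* (0.068) and 0.052 for *IFNGR2* (0.065). Such differences were common, with 29.6% of all genes tested higher and 14.6% lower in replicate 3 at an adjusted p under 0.05, and with median ratio scaling 2460 genes were higher and 2958 lower in place of 3808 and 1877. The median of all genes was 0.092 with FPKM and -0.010 with median ratio scaling, under which *IFNAR2* no longer passed (log2 difference 0.19, limma adjusted p = 0.0636) while *IFNLR1* (0.70, limma adjusted p = 0.00134) and *IL10RB* (0.34, limma adjusted p = 0.0168) did. Without MDM4 replicate 3, *IL10RB* (0.36, limma adjusted p = 0.116) and *IFNAR2* (0.19, limma adjusted p = 0.267) did not pass and *IFNLR1* did (0.67, limma adjusted p = 0.0337). The 2 libraries with the most *IFNLR1* were thus control replicate 3, with 0 lambda reads, and MDM4 replicate 3, with 5. MDM4 replicates 1 and 2, with 2 and 0 lambda reads, had the least *IFNLR1*, at 1.92 and 1.86 FPKM.

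**Figure D3:**
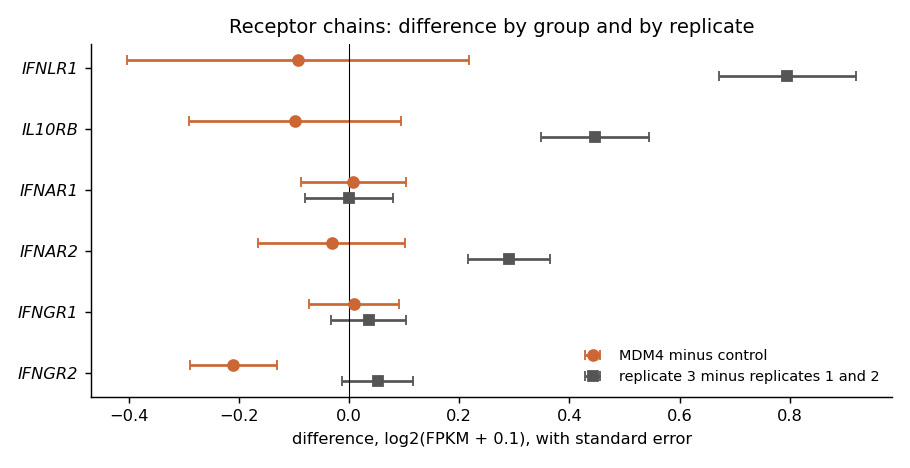
Differences of the 6 receptor chains on the log2(FPKM + 0.1) scale with their standard errors from limma, for MDM4 minus control (circles) and for replicate 3 minus replicates 1 and 2 (squares). The squares of IFNLR1, IL10RB and IFNAR2 lie to the right, at 0.80, 0.45 and 0.29, while every circle lies within 0.21 of 0.

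Of the receptor chains, 4 are neighbours in the genome. In GENCODE release 29 on GRCh38, *IFNAR2* (33229901 to 33265675), *IL10RB* (33266358 to 33310187), *IFNAR1* (33324477 to 33359862) and *IFNGR2* (33402896 to 33479348) follow each other on the plus strand of chromosome 21 within 249448 bases. The next-door pair *IFNAR2* and *IL10RB* were both higher in replicate 3, and *IFNAR1* and *IFNGR2* did not pass that test. A read-through gene annotated across *IFNAR2* and *IL10RB* on the same strand could share reads with both. *TMEM50B* overlaps *IFNGR2* on the opposite strand, and without a strand-specific count reads from these genes cannot be told apart. *IFNLR1* is on the minus strand of chromosome 1 from 24154157 to 24187959, and *IFNGR1* on the minus strand of chromosome 6 from 137197484 to 137219449.

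The other genes of the pathway were taken from 7 fixed lists with 109 genes in the table. Over all 6 libraries limma called 0 of them, and over replicates 1 and 2 alone it called 25, all lower with MDM4, beside 36 of 12746 genes (0.282%). With the replicate number as a block and all 6 libraries, limma on FPKM called 0 of them and voom on recovered reads called 10, all lower, beside 14 of all genes. Of 24 genes that sense nucleic acids or carry the signal to the interferon genes, 20 were tested, and their median log2 difference between MDM4 and control was -0.14 with 17 below 0. Over replicates 1 and 2 alone 2 of these passed, both lower. *IRF7*, the factor that amplifies interferon transcription, had 12.3, 10.1 and 6.44 FPKM in control libraries and 4.90, 4.74 and 6.15 FPKM in MDM4 libraries (over replicates 1 and 2, log2 difference -1.19, limma adjusted p = 3.87e-04). *IFIH1*, which encodes the RNA sensor MDA5, was at 11.8, 13.1 and 7.93 FPKM in control and 5.14, 5.88 and 8.81 FPKM in MDM4 libraries (over replicates 1 and 2, -1.17, limma adjusted p = 2.62e-04). In both genes control replicate 3 was closer to the MDM4 libraries than to the other control libraries, and in replicate 3 the MDM4 minus control difference was -0.065 for *IRF7* and 0.15 for *IFIH1*. Neither passed over all 6 libraries with the block (limma adjusted p = 0.249 for *IRF7* and 0.300 for *IFIH1*).

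Of the 7 genes that carry the signal from the receptors, all were tested and 4 were below 0, with a median of -0.12. Over replicates 1 and 2 alone *IRF9*, a DNA-binding partner of STAT2, passed. It had 19.6, 17.2 and 6.98 FPKM in control libraries and 3.80, 4.76 and 7.12 FPKM in MDM4 libraries (log2 difference over replicates 1 and 2 of -2.08, limma adjusted p = 3.42e-06). Over all 6 libraries with the replicate number as a block, *IRF9* did not pass (limma adjusted p = 0.249). The kinases *JAK2* and *TYK2* had differences of 0.22 (standard error 0.17) and -0.16 (0.12) over all libraries. Of 14 negative regulators, all tested, 4 were below 0 and the median was 0.032. Over replicates 1 and 2 alone 1 passed, *USP18*, which binds IFNAR2 and damps its signal, at 4.81, 4.63 and 2.81 FPKM in control and 1.63, 2.31 and 2.72 FPKM in MDM4 libraries (log2 difference -1.24, limma adjusted p = 0.00401). With the block over all libraries *USP18* did not pass (limma adjusted p = 0.276). In the fit of replicates 1 and 2, 0.282% of all genes tested were called lower.

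Of 35 response genes 29 were tested, with a median of -1.07 and 28 below 0, and 21 of 30 tested over replicates 1 and 2 alone were called lower, beside 0.282% of all genes tested in that fit. The medians by same-numbered libraries were -1.51, -1.63 and -0.052 in replicates 1 to 3. Among related receptors, 5 of 6 were tested and 4 were below 0, with a median of -0.12, and 0 of the 4 tested over replicates 1 and 2 were called. *IL10RA*, which pairs with IL10RB for interleukin 10, was at 0.697, 0.483 and 1.07 FPKM in control and 0.285, 0.370 and 1.29 FPKM in MDM4 libraries. *F3*, the tissue factor gene of the same receptor family, was at 32.4, 34.3 and 10.8 FPKM in control and at 42.5, 42.3 and 11.6 FPKM in MDM4 libraries, low in replicate 3 of both groups where *IFNLR1* was high. Of 6 related cytokines 2 were tested and both were below 0. *IL10*, itself a ligand of a receptor with IL10RB, was at 7.86, 8.04 and 9.02 FPKM in control and 6.41, 5.69 and 8.10 FPKM in MDM4 libraries, and it was not called in either fit. The lists for the pathway were written with earlier results of these libraries known, and their counts are not independent evidence.

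**Figure D4:**
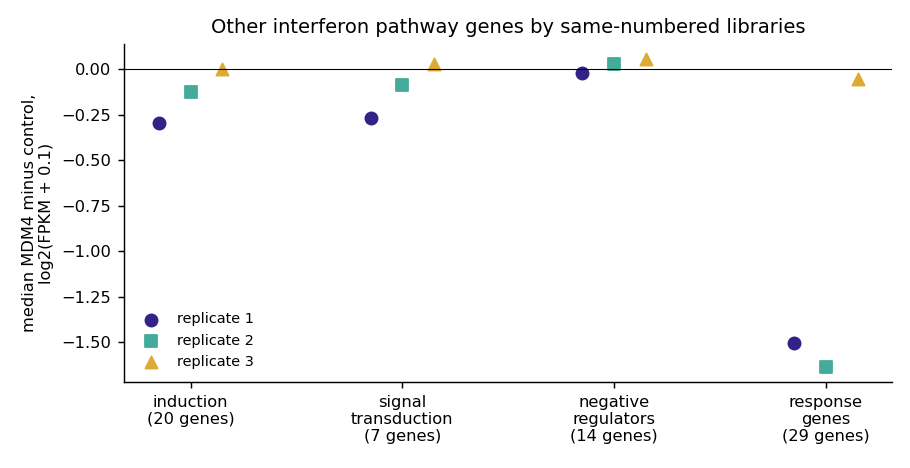
Median difference of MDM4 minus control between same-numbered libraries, on the log2(FPKM + 0.1) scale, for 4 lists of interferon pathway genes, with 1 point per replicate number. The 29 response genes are at -1.51 and -1.63 in replicates 1 and 2 and at -0.052 in replicate 3, while the 14 negative regulators stay within 0.054 of 0.

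The genes whose profile over the 6 libraries was most like that of *IFNL1* were sought by the root-mean-square difference between mean-centred log2(FPKM + 0.1) values among the 12884 genes tested. *IFNL2*, a member, was closest at 0.243, and *IFNL3* was at 0.547. Outside the members the closest were *IFI6* (0.307), *MX1* (0.521), *XAF1* (0.558), *IFIT2* (0.572), *IFI27* (0.643), *MX2* (0.712), *OAS1* (0.805), *IFIT1* (0.906), *IFI44* (0.947) and *DDX60* (0.965), and all 10 are in the list of 35 response genes. Of the 12884 genes compared, 29 are in that list, which was written with earlier results of these libraries known. A gene with no change at all would be at 1.73, and the median over all genes tested was 1.76. These distances depend on the pseudocount, because *IFNL1* was at 0 in 4 libraries, and their order may too. They were computed with a pseudocount of 0.1 alone. The receptor chains were between 1.66 for *IFNGR2* and 1.89 for *IFNLR1*. *IFI6*, a small mitochondrial protein, was at 162.0 and 169.8 FPKM in control replicates 1 and 2 and between 15.2 and 21.3 FPKM in the other 4 libraries. *MX1*, an antiviral GTPase, was at 30.6 and 30.4 FPKM in control replicates 1 and 2 and between 3.75 and 5.65 FPKM elsewhere. The likeness is a description over 6 libraries that differ in depth, replicate number and transfection.

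**Figure D5:**
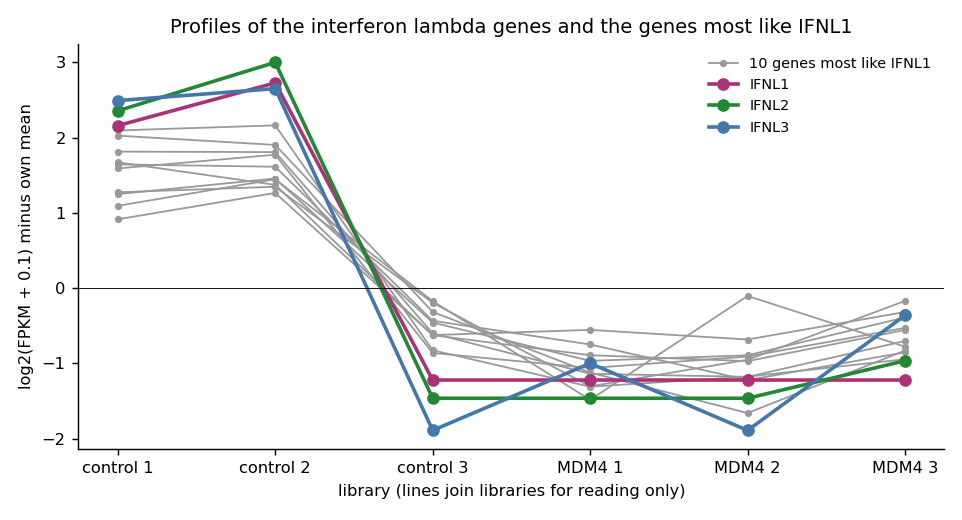
log2(FPKM + 0.1) of IFNL1, IFNL2, IFNL3 and the 10 genes most like IFNL1, each minus its own mean, in the 6 libraries. Control replicates 1 and 2 are above 0 for every gene shown and control replicate 3 and the 3 MDM4 libraries below it.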

How the data were processed

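Total RNA of SW480 cells was selected for mRNA by oligo(dT), and libraries were run on an Illumina HiSeq2000. The authors deposited FPKM values per gene and library, and the aligner, counter, genome build and annotation are not given in the sources used here. The columns carry a letter and a number, read as group and replicate number. The members and all lists were chosen with earlier results of these data known.

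Library totals, gene lengths and whole reads were derived here from the steps of the FPKM values for 17188 of 17189 genes (99.994%). A common factor of all reads of a gene is lost in this way and was restored for 324 genes under 100 reads from GENCODE 29 transcript lengths within 2%, among them *IFNL1*, whose length of 856 bases compares with an annotated 857. log2(FPKM + 0.1) was fitted with limma 3.58.1 (R 4.3.3; lmFit, eBayes with a trend) over 12884 genes whose mean FPKM was 0.5 or more, and p-values were adjusted after Benjamini and Hochberg. Both steps were tested on simulated data. Deviations from group means correlated at 0.458, 0.451 and 0.783 between same-numbered libraries across genes, and a fit with the numbers as a block was an alternative. Control replicate 1 with MDM4 replicate 2 gave 0.462 and control replicate 2 with MDM4 replicate 1 gave 0.439, so the numbers 1 and 2 could be exchanged. These values set replicate 3 apart and do not show how replicates 1 and 2 pair. Other alternatives were pseudocounts, scalings, no filter, libraries left out and voom on the recovered reads. Examples from a list are at most the 4 genes with the largest absolute difference over all libraries. Intervals are exact, at 95%, and a floor is 3 reads. Python 3.11.15, scipy 1.17.1, Biopython 1.88 and matplotlib 3.10.9 were used. Promoters came from RefSeq. The values of 1 gene of the signal transduction list are not reported here.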

Additional observations from a re-analysis of the deposited data

How the results depend on the processing

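Of the 19 alternatives tried, 5 moved the count of all genes called from 0. It was 2 with the replicate number as a block, of which 0 were interferon or receptor genes, 37 over replicates 1 and 2 alone and 14 with voom on recovered reads with the replicate block. With 1 library left out it was between 0 and 16, at 16 without control replicate 3 and 1 without MDM4 replicate 3. The count of interferon and receptor genes called was 3 over replicates 1 and 2 alone and between 0 and 2 with 1 library left out, 2 being the value without control replicate 3. The count of pathway genes called was 25 over replicates 1 and 2 alone, 10 with voom and the replicate block, and between 0 and 12 with 1 library left out, 12 being the value without control replicate 3. The block changed no call of an interferon or receptor gene. The log2 difference of *IFNL2* was between -4.27 and -0.93 and that of *IFNL3* between -4.01 and -0.97 over 16 alternatives each, the smallest sizes with a pseudocount of 1, and both genes fell below the filter without control replicate 1 or 2. *IFNGR2* was between -0.25 and -0.18 over 18 alternatives. The sign of the other 5 chains changed in 2 to 4 of 18 alternatives, with values between -0.40 and 0.13. *IFNL1* and *IFNB1* passed the filter in few settings, so most alternatives gave no value for them.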
